A study of Homo sapiens with 21 samples.

Results

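IGLL1 and IGLL5 are the lambda-like light chain genes among the loci of this Tri-C series, and they make up 2 of its 53 loci. Their members were taken by name: all 14 of 371 deposited count files that carry either gene's label, 7 per locus, with 4 libraries from an enhancer viewpoint and 3 from the viewpoint at a CTCF-binding site (CBS). Tri-C cuts and religates cross-linked chromatin, captures ligation products that hold a chosen viewpoint fragment, and counts pairs of other fragments, called reporters, read together with it. The material was BLaER1, an established leukaemia line of human B cells in which C/EBPα, switched on by 17β-estradiol and helped by IL-3 and CSF-1, drives conversion into induced macrophages (iMacs). Both kinds of viewpoint were read in the parental line at 0 h (no transdifferentiation factors), 24 h and 96 h. The enhancer viewpoints were read once more at 96 h in the BLaER subclone CTCF-AID, in which CTCF carries an auxin-inducible degron and auxin was given together with the transdifferentiation factors. Its 96 h comparison library came from the parental line, so subclone, auxin and loss of CTCF cannot be told apart. The 21 samples form 7 groups of 3 replicates, but the 3 replicates of a group were merged into 1 count file before deposit. There was therefore 1 library per condition and no replicate check, and all p-values and intervals below compare pooled libraries and cover counting error only. CTCF binding was not measured in these files, and the CBS is named from its label.

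IGLL1 encodes λ5, which together with the VPREB1 protein forms the surrogate light chain. That chain pairs with the immunoglobulin heavy chain in the pre-B cell receptor, the checkpoint through which B cell precursors pass before they rearrange a light chain gene. IGLL5 is a relative of IGLL1 inside the immunoglobulin lambda light chain locus, where it lies upstream of the constant genes IGLC1 to IGLC7. VPREB1 sits in the same locus among the variable segments, and VPREB3, a relative that binds pre-B cell receptor components during assembly, lies in the IGLL1 region. CTCF holds cohesin at its binding sites and so bounds the stretches of chromatin within which enhancers and promoters meet most often.

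All coordinates are hg38. The IGLL1 promoter (ENSG00000128322.7, minus strand) is at position 23580290 of chromosome 22, its enhancer viewpoint at 23752284 and its CBS viewpoint at 23862459. The IGLL5 promoter (ENSG00000254709.8, plus strand) is at 22887816, its enhancer viewpoint at 22932127 and its CBS viewpoint at 22956441. At both loci the order along the chromosome is promoter, enhancer, CBS. The 12 kb window around the IGLL1 CBS viewpoint also holds the starts of SLC2A11 (23857875) and of the protein-coding gene ENSG00000251357 (23862188). For its other capture assay, which is not analysed here, the study placed the boundary CBS of IGLL1 elsewhere, between the enhancer and the CBS viewpoint used here, and all IGLL1 CBS and crossing values below refer to the Tri-C viewpoint. The IGLL1 enhancer is 172 kb from its promoter and 110 kb from its CBS, and the IGLL5 enhancer 44.3 kb from its promoter and 24.3 kb from its CBS. Among the 51 loci compared, the median spans were 66.6 kb from enhancer to promoter and 139.9 kb from enhancer to CBS, so IGLL1 has a long promoter span and IGLL5 a short boundary span (rank 14 and rank 49 from the longest). The promoters of IGLL1 and IGLL5 are 692 kb apart. The 4 captured fragments were read from the reporter-free gap of each library set, and they are shown because every value below is a contact of one of them. The viewpoint positions above are the middle of that gap. For the IGLL5 CBS this point, 22956441, lies outside the captured fragment. Each is printed on the plus strand, with the NlaIII site at either end in capitals and, inside the enhancer fragments, E-box letters (CAGGTG or CAGCTG on either strand) in capitals as well.
IGLL1 enhancer viewpoint, chr22:23752137-23752425, between ZNF70 and VPREB3, 0.459 kb from the VPREB3 end: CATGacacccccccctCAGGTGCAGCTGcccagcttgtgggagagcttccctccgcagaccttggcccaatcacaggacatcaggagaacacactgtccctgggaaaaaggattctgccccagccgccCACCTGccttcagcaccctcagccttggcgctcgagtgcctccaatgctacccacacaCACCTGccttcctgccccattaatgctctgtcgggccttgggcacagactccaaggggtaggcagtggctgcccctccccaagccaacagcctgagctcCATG
IGLL5 enhancer viewpoint, chr22:22931981-22932250, intergenic, 9.09 kb beyond IGLC7: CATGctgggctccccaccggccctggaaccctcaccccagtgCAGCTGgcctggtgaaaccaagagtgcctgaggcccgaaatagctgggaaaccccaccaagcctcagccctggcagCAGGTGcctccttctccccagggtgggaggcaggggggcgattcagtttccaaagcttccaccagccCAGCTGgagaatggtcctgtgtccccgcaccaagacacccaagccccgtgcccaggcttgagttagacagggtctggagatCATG
IGLL1 CBS viewpoint, chr22:23862384-23862524, inside SLC2A11: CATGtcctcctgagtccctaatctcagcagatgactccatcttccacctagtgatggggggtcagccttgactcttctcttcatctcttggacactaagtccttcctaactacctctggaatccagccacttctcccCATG
IGLL5 CBS viewpoint, chr22:22956131-22956280, intergenic: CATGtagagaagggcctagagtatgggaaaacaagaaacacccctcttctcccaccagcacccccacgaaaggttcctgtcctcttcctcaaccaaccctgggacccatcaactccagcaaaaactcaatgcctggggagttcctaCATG
E-boxes are bound by the B lineage factor E2A among others. The IGLL1 enhancer fragment held CAGGTG at 3 places, letters that 36.5% of 3460 stretches of the same length in the region also hold, and CAGCTG at 1 place (16.4%). The IGLL5 enhancer fragment held CAGGTG at 1 place (31.6% of 3703 stretches) and CAGCTG at 2 places (14.8%). The letters AGGNGGC, a part of the CTCF motif, were in neither CBS fragment on either strand, against 13.6% and 13.2% of stretches of their lengths.

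The IGLL1 promoter is shown because, of the 2 promoter windows read from their own enhancers, its window changed more. RefSeq (GRCh38.p14) gives its 300 bases from 250 before to 50 after the gene start, chr22:23580241-23580540, printed 5′ to 3′ on the minus strand, with CCCNNGGG (the core of the motif of EBF1, a factor that switches on early B cell genes), CAGGTG and CAGCTG in capitals.
IGLL1 promoter: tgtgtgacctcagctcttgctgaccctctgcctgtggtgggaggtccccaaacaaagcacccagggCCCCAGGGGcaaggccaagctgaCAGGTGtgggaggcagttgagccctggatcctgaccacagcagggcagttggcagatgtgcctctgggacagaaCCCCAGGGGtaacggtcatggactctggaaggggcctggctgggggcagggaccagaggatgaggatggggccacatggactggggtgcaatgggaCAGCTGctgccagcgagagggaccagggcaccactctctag
CCCNNGGG was found at 2 places, at each of which 2 overlapping positions matched (it reads the same on both strands), and 19.1% of the 35116 promoters in the table held it. The VPREB1 promoter held it at 1 place and the VPREB3 promoter at 0 places. CAGGTG was found at 1 place in IGLL1, 1 in VPREB1 and 2 in VPREB3 (20.6% of promoters), and CAGCTG at 1 place in IGLL1 only of the 3 (17.9%). Such matches describe letters and not bound sites.

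A library's total is the number of counts for which neither reporter lies over 1 Mb from the viewpoint. From the IGLL1 enhancer it was 34269 in the CTCF-depleted library and 29894, 34049 and 28768 at 0, 24 and 96 h. From the IGLL5 enhancer it was 59537 in the CTCF-depleted library and 43010, 45291 and 40941 at 0, 24 and 96 h. From the CBS viewpoints it was 66229 to 86868 at IGLL1 and 61696 to 79158 at IGLL5. The median over the 51 loci lay between 45159 and 59537 in the enhancer libraries and between 38738 and 47535 in the CBS libraries. The IGLL1 enhancer is thus the shallower of the 2, and its library at 96 h is the shallowest of the 14. A count of 0 would allow shares of up to 0.00345% to 0.0104% (3 counts of a total). Each promoter, enhancer or CBS window spans 12 kb, and a reporter counts as distant when it lies over 10 kb from the viewpoint and from its partner. Of the fragments listed in the 14 files, all 1038068 entries matched NlaIII fragments of hg38.

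The enhancer of each gene was read together with its own promoter and any further fragment (E-P-X) less often at 24 h and 96 h than at 0 h. At IGLL1 the promoter window held 593, 244 and 176 counts at 0, 24 and 96 h, or 1.98% (95% Clopper-Pearson interval 1.83 to 2.15), 0.717% (0.63 to 0.812) and 0.612% (0.525 to 0.709) of the total. At IGLL5 it held 1083, 792 and 636 counts, or 2.52% (2.37 to 2.67), 1.75% (1.63 to 1.87) and 1.55% (1.44 to 1.68). At both genes the 0 h interval lay above those of both later times. On the log2 scale of the odds ratio, IGLL1 changed by -1.49 at 24 h (interval -1.71 to -1.27) and by -1.71 at 96 h (-1.97 to -1.47), and its adjusted p from the exact conditional binomial test was 4.82e-45 and 5.49e-51. IGLL5 changed by -0.54 at 24 h (-0.67 to -0.40) and by -0.71 at 96 h (-0.85 to -0.57), with adjusted p of 3.30e-15 and 2.23e-23. A locus was called when this p, adjusted over the 51 loci by the Benjamini-Hochberg method, was under 0.05. Falls were called at 27.5% of the 51 loci at 24 h and at 27.5% at 96 h, against rises at 52.9% and 68.6%, and all 14 of those at 96 h were among the 15 loci the study classed as B cell loci. IGLL1 had the lowest value of the 51 loci at both times, and IGLL5 ranked 10 and 11 from the lowest. The second lowest locus was IL7R at 24 h (-1.22) and BCL11A at 96 h (-1.61). At 96 h BCL11A and EBF1 (-1.49), both B cell loci, lay inside the IGLL1 interval. The difference between the loci, IGLL1 minus IGLL5, was -0.95 at 24 h (interval -1.20 to -0.69) and -1.0 at 96 h (-1.29 to -0.72). From 24 h on, little further change was measured. Set against 24 h, the 96 h library was lower by a called amount at IGLL5 (log2 -0.17, adjusted p = 0.0326 by the exact test) and not called at IGLL1 (-0.23, interval -0.52 to 0.06), and 13.7% of loci were called lower and 60.8% higher in that comparison.

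**Figure D1:**
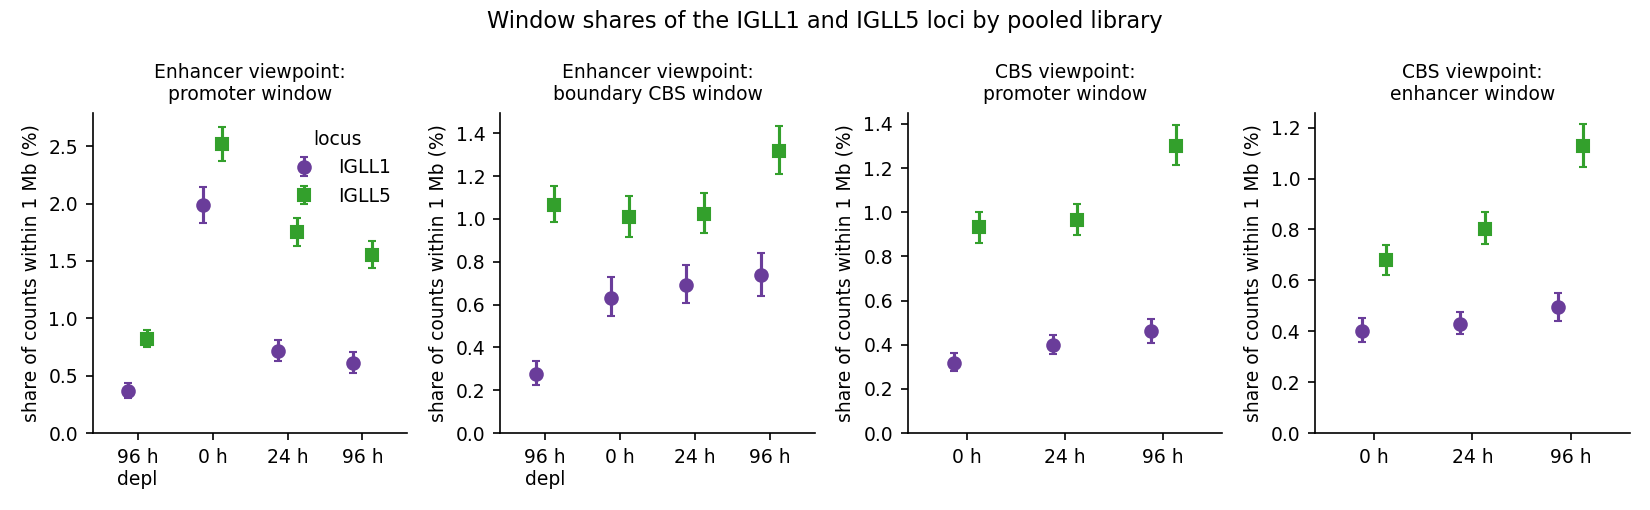
Share of counts within 1 Mb (%) in 12 kb windows, by pooled library, for IGLL1 (circles) and IGLL5 (squares), with the enhancer viewpoint in the 2 left panels and the CBS viewpoint in the 2 right panels. Bars are 95% Clopper-Pearson intervals of counting error, and the promoter window of the enhancer viewpoint is highest at 0 h at both loci, at 1.98% and 2.52%.

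In the CTCF-depleted library the promoter contact was lower again. IGLL1 held 125 counts, 0.365% (0.304 to 0.434), in depleted cells and 176 counts, 0.612%, in the 96 h library of the parental line. IGLL5 held 490 counts, 0.823% (0.752 to 0.899), in depleted cells and 636 counts, 1.55%, in the parental line. The log2 changes were -0.75 (-1.09 to -0.41, adjusted p = 8.70e-06 by the exact test) and -0.93 (-1.10 to -0.75, adjusted p = 1.12e-26). Falls were called at 92.2% of loci in this comparison and rises at 0.0%, and IGLL1 and IGLL5 ranked 32 and 26 from the lowest. The difference between them, 0.18, had an interval that includes 0 (-0.19 to 0.55). The share of all counts that was distant fell at the same time, to 16.2% in depleted cells against 24.8% in the parental line at IGLL1 and to 18.2% against 24.8% at IGLL5, as it did at 100% of loci (Fisher's exact test). Relative to distant counts alone, the IGLL1 promoter window changed by -0.13 (-0.47 to 0.21), which was not called, and the IGLL5 window by -0.49 (-0.67 to -0.32), which stayed called. With each fragment pair counted once the IGLL5 value was -0.54.

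The fall at the IGLL1 promoter was narrow. Along 80 tiles of 12 kb within 500 kb of the IGLL1 enhancer, the tile that holds the promoter, from -180 to -168 kb, had 180 counts at 96 h and 570 counts at 0 h, a log2 change of -1.62 that was the lowest of the 80. The tiles on either side changed by -0.62 and -0.65, and the next tile away from the enhancer, from -204 to -192 kb, rose by 0.43. The median over the 80 tiles was 0.13, with 6 called higher and 10 called lower. The lower tiles also included those from 12 to 48 kb on the other side of the enhancer, where the MMP11 and SMARCB1 promoters lie, and their lowest was -0.70. At IGLL5 the promoter tile, from -48 to -36 kb, had 681 counts at 96 h and 1157 counts at 0 h, a log2 change of -0.71. It was the second lowest of 80 tiles, of which 14 were called higher and 3 lower, with a median of 0.13. Over both loci and both kinds of viewpoint, 15.9% of 320 tiles were called higher and 9.06% lower.

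**Figure D2:**
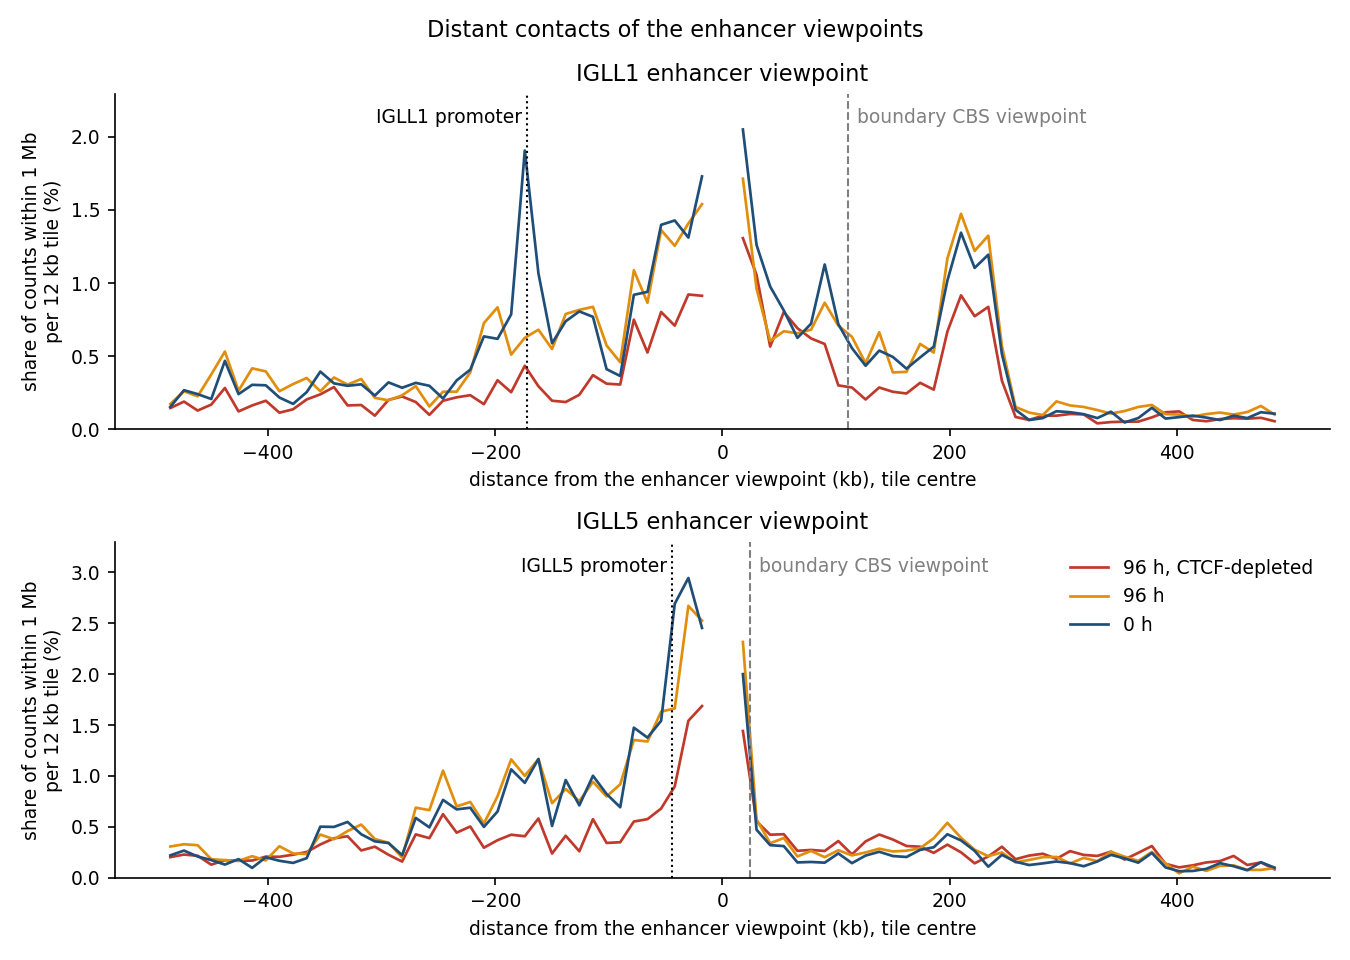
Share of counts within 1 Mb (%) per 12 kb tile against distance from the enhancer viewpoint (kb), for IGLL1 (top) and IGLL5 (bottom), in the CTCF-depleted, 96 h and 0 h libraries. Dotted lines mark the gene's promoter and dashed lines its CBS viewpoint, and the promoter peak of IGLL1 at 0 h, 1.91% of the total in its tile, stands at 0.626% at 96 h.

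The counts in the promoter windows were spread over many fragments. The 593 counts of IGLL1 at 0 h came from 451 fragment pairs, the most frequent of which was seen 12 times, and from 56 fragments of the window. The 1083 counts of IGLL5 at 0 h came from 800 pairs, the most frequent seen 7 times. Part of the sequence at IGLL1 occurs elsewhere in the genome: 19.6% of the 31-base words in its promoter window do, against 1.60% at the IGLL5 promoter. With fragments of mostly repeated sequence left out, the IGLL1 value at 96 h was -1.89.

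The other fragment of these promoter contacts was set against all distant reporters of the same library, with no test. At IGLL1 at 0 h, 226 of 593 counts (38.1%, 34.2 to 42.2) had it beyond the promoter, where 29.9% of all distant reporters lay, and 203 (34.2%) between promoter and enhancer, where 26.7% lay. Beyond the CBS window it was found in 65 (11%, 8.56 to 13.8), against 25.8% of all distant reporters. At IGLL5 at 0 h, 623 of 1083 counts (57.5%, 54.5 to 60.5) had it beyond the promoter, close to the 58.6% of all distant reporters, and 198 (18.3%, 16 to 20.7) beyond the CBS window, where 20.6% lay. At both loci the shares of all distant reporters include those in and next to the promoter window. The other fragment could seldom lie there, since it is over 10 kb from its partner, so the shares cover unlike stretches. Contacts that joined enhancer, promoter and CBS in 1 count (E-P-C) were rare. At IGLL1 there were 0 of 34269 in depleted cells, which allows a share of up to 0.00875%, and 7, 2 and 2 at 0, 24 and 96 h, too few for a call. IGLL5 had 19 of them in depleted cells and 19, 11 and 24 at 0, 24 and 96 h. At IGLL5, 96 h against 24 h was called higher (1.24, interval 0.19 to 2.45, adjusted p = 0.0423 by the exact test, where 42.4% of 33 loci were called higher and 0.0% lower), and 96 h against 0 h was not called (0.40, -0.52 to 1.36, where 53.3% of 30 loci were called higher and 13.3% lower).

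The enhancers also met promoters of other surrogate light chain genes over long distances, and most of all at 0 h. VPREB1 and IGLL1 were among the genes to be named, but the following windows were added to the tests after their counts had been seen. From the IGLL5 enhancer, the VPREB1 promoter (position 22244786, 687 kb away, on the side of the IGLL5 promoter) held 226, 97 and 46 counts at 0, 24 and 96 h, or 0.525% (0.459 to 0.598), 0.214% (0.174 to 0.261) and 0.112% (0.0823 to 0.15). The 0 h count was 2.97 times the mean of the 4 nearest 12 kb tiles, which held 16 to 133 counts, and the window at the mirrored distance on the other side of the enhancer held 30. At 96 h these 4 tiles held 20 to 67 counts, and the window held 1.2 times their mean. Part of the fall of the window was thus shared by its surroundings. A further high tile, centred at -36 kb from the VPREB1 start, held 168 counts at 0 h. The VPREB1 window thus stood above the tiles within 60 kb at 0 h, and its change at 96 h was -2.22 (-2.72 to -1.77, adjusted p = 1.56e-26 by the exact test over the 63 promoter windows within 990 kb of an enhancer viewpoint). In the CTCF-depleted library it held 112 counts, 0.188%, against 46 counts, 0.112%, in the parental line at 96 h, a rise of 0.74 (0.24 to 1.27, adjusted p = 0.0089 by the exact test). The count in depleted cells was 2.52 times the mean of its neighbours. That rise was not called with windows of 30 kb (0.27) or with all counts divided by 3 (0.74).

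From the same IGLL5 enhancer, the IGLL1 promoter, 648 kb away in the opposite direction, held 181, 41 and 35 counts at 0, 24 and 96 h, or 0.421% (0.362 to 0.487), 0.0905% (0.065 to 0.123) and 0.0855% (0.0596 to 0.119). At 0 h this was 3.20 times the mean of its 4 neighbouring tiles, which held 26 to 75 counts. At 24 and 96 h it was 1.08 and 1.41 times the mean of the same tiles. They held 36 to 40 counts at 24 h and 10 to 35 at 96 h, so part of the fall was shared by them. The change was -2.21 at 24 h (-2.75 to -1.73) and -2.29 at 96 h (-2.87 to -1.78, adjusted p = 2.40e-22 by the exact test), so the IGLL1 promoter was lower from both enhancers. Depleted cells held 64 counts (0.107%) and the parental line at 96 h 35 (0.0855%), which was not called (0.32, -0.29 to 0.97). The count in depleted cells was 2.06 times the mean of its neighbours. In both loci the distances are those of the reference genome, and rearrangement of the lambda locus in this line was not examined.

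From the IGLL1 enhancer, VPREB1 lies 1507.5 kb away, so its counts were set against all counts on the chromosome. They were 64, 27 and 17 at 0, 24 and 96 h, or 0.162% (0.125 to 0.207), 0.0585% (0.0386 to 0.0851) and 0.0434% (0.0253 to 0.0694), and the 0 h count was 3.24 times the mean of its neighbours. The change was -1.46 at 24 h and -1.87 at 96 h (-2.77 to -1.11, unadjusted exact p = 1.44e-07). With 38 counts in depleted cells and 17 in the parental line at 96 h, the depletion change of 0.75 had an interval that includes 0 (-0.09 to 1.69). The count in depleted cells was 1.33 times the mean of its neighbours. The IGLL1 enhancer and the IGLL5 promoter, 864 kb apart, are a different pair of elements, and they showed no such peak. From the IGLL1 enhancer, the IGLL5 promoter held 31, 30 and 21 counts at 0, 24 and 96 h, and the 0 h count was 0.747 times the mean of its neighbours.

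Some of these counts joined 3 of the elements at once. With the IGLL5 enhancer as viewpoint, IGLL1 and IGLL5 promoter windows occurred in the same count 24, 2 and 4 times at 0, 24 and 96 h, and VPREB1 and IGLL1 promoter windows 8, 0 and 0 times. With the IGLL1 enhancer as viewpoint, VPREB1 and IGLL1 promoter windows occurred together 6, 0 and 0 times. These counts are few, and no test was run on them. The VPREB3 promoter, which lies within 10 kb of the IGLL1 enhancer and could be read only from IGLL5, held 20, 19 and 20 counts there. The starts of VPREB3 (position 23754425) and ZNF70 (23751112) both lie inside the 12 kb window around the IGLL1 enhancer viewpoint (23752284). Contacts of that viewpoint or window therefore cannot be told apart from contacts of these promoters.

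From the CBS viewpoints these windows stood less far above their neighbours at 0 h. From the IGLL5 CBS, VPREB1 held 133, 76 and 65 counts at 0, 24 and 96 h, at 1.34, 0.72 and 1.08 times the neighbouring mean, and its 96 h change was -0.78 (-1.24 to -0.35). From the same CBS, the IGLL1 promoter held 73, 91 and 84 counts, at 0.737 to 1.13 times that mean, with a 96 h change of 0.45 whose interval includes 0 (-0.02 to 0.92). From the IGLL1 CBS, VPREB1 held 35, 34 and 28 counts, and the 0 h count was 2.03 times that mean.

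**Figure D3:**
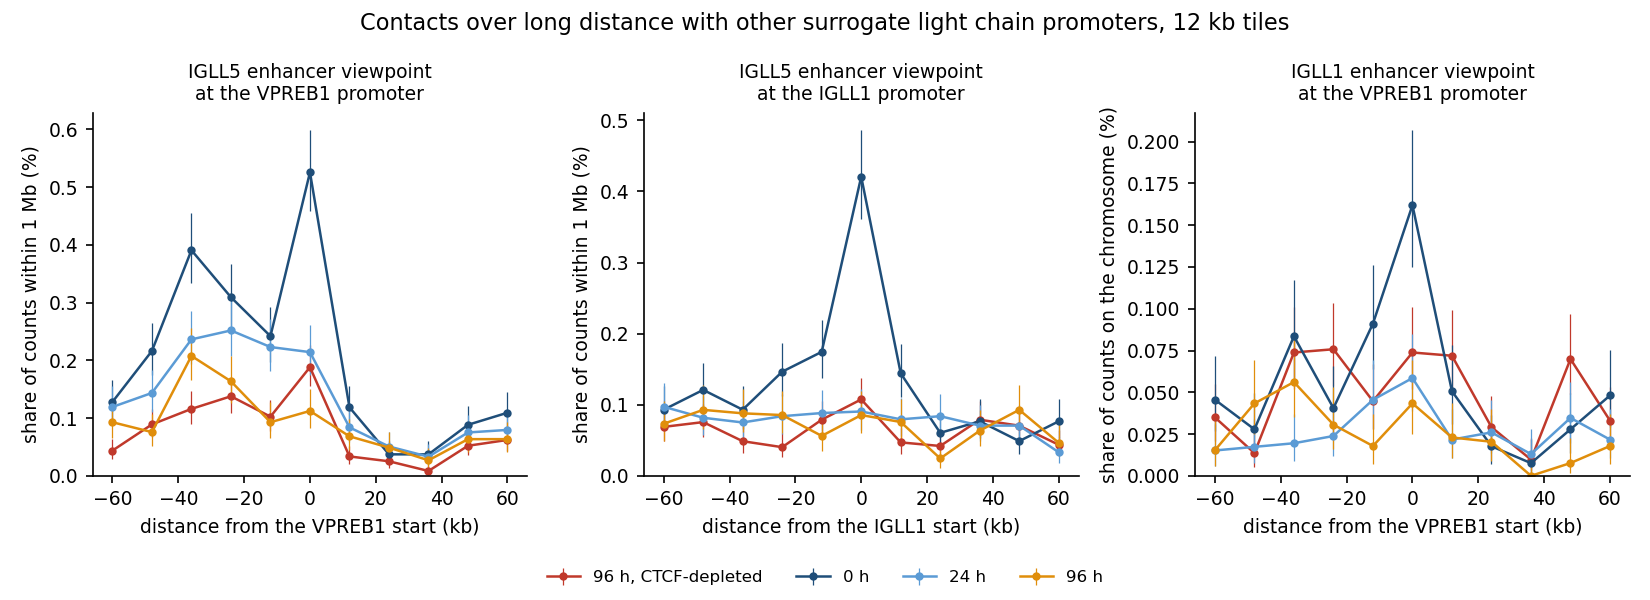
Share of counts (%) per 12 kb tile against distance from a gene start (kb), for the IGLL5 enhancer at VPREB1 and at IGLL1 (share of counts within 1 Mb) and for the IGLL1 enhancer at VPREB1 (share of counts on the chromosome), in the CTCF-depleted, 0 h, 24 h and 96 h libraries. Bars are 95% Clopper-Pearson intervals, and the 0 h library peaks at the start of each gene, at 0.525%, 0.421% and 0.162%.

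Other promoters near the 2 enhancers changed less. Within 500 kb, 29 promoter windows were measured, those of IGLL1 and IGLL5 included, of which 10.3% were called higher and 17.2% lower at 96 h against 0 h. Of the 17 at the IGLL1 locus, 1 was called higher and 3 lower, IGLL1 itself among them, with a median of 0.10. GSTT2, a glutathione transferase gene, rose by 0.34 with 411 counts at 96 h and 339 at 0 h. It lies in the GSTT2B to GSTT2 interval, largely of repeated sequence, which as a whole was not called (0.14, -0.02 to 0.29, unadjusted p = 0.0806 by Fisher's exact test), and its copy GSTT2B was not called (0.19). SMARCB1, a subunit of the SWI/SNF remodelling complex, held 249 counts at 96 h and 379 at 0 h and fell by 0.56. RGL4, a guanine nucleotide exchange factor gene, held 260 counts at 96 h and 337 at 0 h and fell by 0.32. SUSD2 (0.83), GGT5 (0.59), MIF (0.25), DERL3 (-0.32) and MMP11 (-0.21) were not called.

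Of the 12 windows at the IGLL5 locus, 2 were called higher and 2 lower, with a median of 0.05. The lower ones were IGLL5 itself and IGLC1, the first lambda constant gene, whose window overlaps that of IGLL5 and which held 720 counts at 96 h and 994 at 0 h (-0.40). IGLC2, with 1006 counts at 96 h and 1161 at 0 h (-0.14), and IGLC3, with 1089 at 96 h and 1212 at 0 h (-0.09), were not called, and IGLC7 was too near the viewpoint to be measured. ZNF280A held 86 counts at 96 h and 57 at 0 h and rose by 0.66, and PRAME, a cancer-testis antigen gene, held 95 counts at 96 h and 66 at 0 h and rose by 0.59. ZNF280B (0.17), RSPH14 (0.10), GNAZ (0.10), BCR (0.06), RAB36 (0.04) and GGTLC2 (-0.22) were not called.

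When windows up to 990 kb were included, which was decided after the counts had been seen, 6.35% of 63 were called higher and 19.0% lower at 96 h against 0 h. The IGLL1 promoter had the lowest value of the 35 windows of its own enhancer and of the 28 windows of the IGLL5 enhancer. In the depletion comparison over the same 63 windows, 7.94% were called higher and 34.9% lower. The distant share as a whole fell by 0.77 from the IGLL1 enhancer and by 0.57 from the IGLL5 enhancer. From the IGLL1 enhancer the lowest was DRICH1, between IGLL1 and the enhancer, with 89 counts in depleted cells and 245 in the parental line at 96 h (-1.72). From the IGLL5 enhancer, GNAZ, which lies beyond the CBS and encodes a G protein subunit, held 265 counts in depleted cells and 117 in the parental line. It rose by 0.64. Of the other windows beyond that CBS within 500 kb, RSPH14 (-0.67) and RAB36 (-0.85) were called lower, and BCR (0.32) was not called. Farther out, at 907 to 930 kb, DERL3 (0.86), SLC2A11 (1.11) and ENSG00000251357 (1.08) were called higher by more than GNAZ. Their counts were lower than those of GNAZ, and the windows of SLC2A11 and ENSG00000251357 overlap. No window over 500 kb beyond that CBS was called lower. On the other side of the enhancer, IGLC1 fell by 0.82, IGLC2 by 0.76 and IGLC3 by 0.79.

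**Figure D4:**
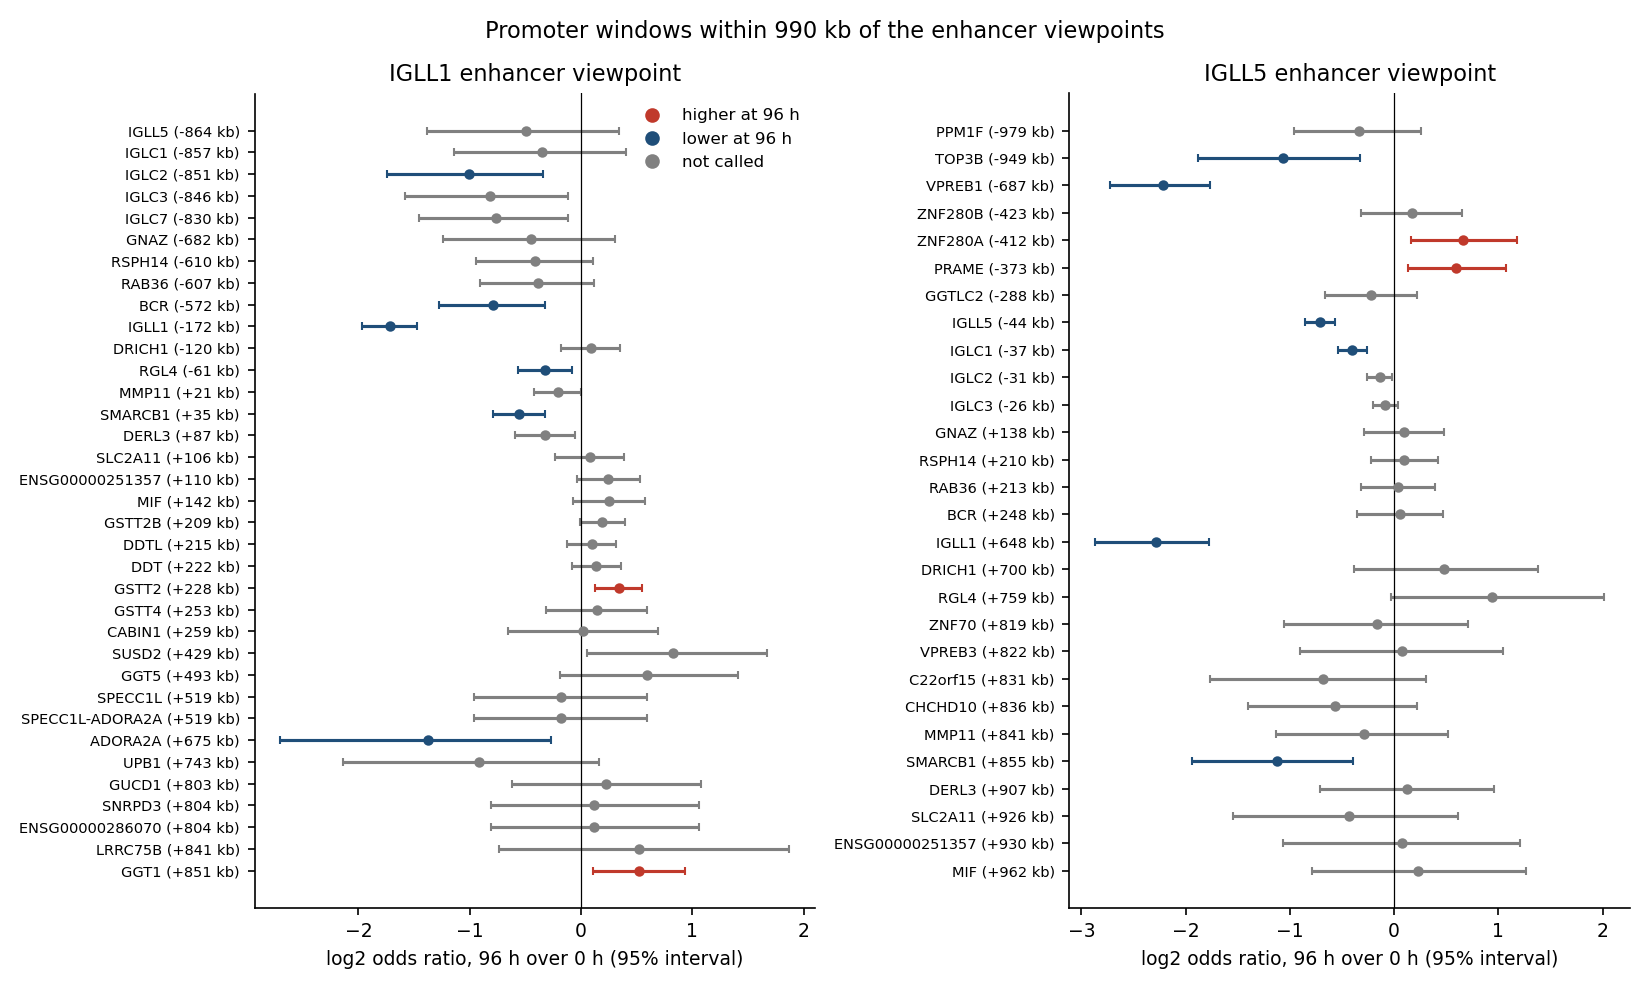
Log2 odds ratio of each 12 kb promoter window, 96 h over 0 h, for the IGLL1 enhancer (left) and the IGLL5 enhancer (right), with genes ordered along the chromosome and their distance from the viewpoint in kb. Bars are 95% intervals, colours give the call over 63 windows, and the IGLL1 promoter is lowest in both panels, at -1.71 and -2.29.

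The contact of each enhancer with its CBS and any further fragment (E-C-X) was not called lower at either time. At IGLL1 the CBS window held 189, 236 and 212 counts at 0, 24 and 96 h, or 0.632%, 0.693% and 0.737%. The changes of 0.13 at 24 h (-0.15 to 0.42) and 0.22 at 96 h (-0.07 to 0.51) were not called. At IGLL5 it held 434, 464 and 540 counts, or 1.01%, 1.02% and 1.32%, and 96 h was higher than 0 h by 0.39 (0.21 to 0.58, adjusted p = 4.45e-05 by the exact test) and higher than 24 h by 0.37 (0.19 to 0.55). Rises were called at 45.1% of loci at 24 h, at 60.8% at 96 h against 0 h and at 56.9% at 96 h against 24 h, and falls at 11.8%, 9.8% and 9.8%. The IGLL5 rise at 96 h was no longer called with windows of 7.5 kb (0.13) or an exclusion of 20 kb (0.18).

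In the CTCF-depleted library the contacts of the 2 enhancers with their CBS windows differed. IGLL1 held 95 counts, 0.277% (0.224 to 0.339), in depleted cells and 212 counts, 0.737% (0.641 to 0.843), in the parental line at 96 h, a fall of 1.41 on the log2 scale (-1.78 to -1.06). IGLL5 held 635 counts, 1.07% (0.986 to 1.15), in depleted cells and 540 counts, 1.32% (1.21 to 1.43), in the parental line, a log2 change of -0.31 (-0.48 to -0.14). Falls were called at 92.2% of loci and rises at 1.96%, and IGLL1 ranked 17 and IGLL5 46 from the lowest of the 51. The difference, IGLL1 minus IGLL5, was -1.10 (-1.49 to -0.72). Both values depended on the total: relative to distant counts IGLL1 changed by -0.81 (-1.18 to -0.46), still called, and IGLL5 by 0.15 (-0.02 to 0.32), not called. The IGLL5 call was also lost with windows of 7.5 kb (-0.20) and with each fragment pair counted once (-0.11), where IGLL1 was -1.54 and -1.01 and stayed called. The fall from the IGLL1 enhancer was not confined to the CBS window. Promoter windows away from it also fell, among them DRICH1 (-1.72) and MIF (-1.35). Of its 35 promoter windows within 990 kb, 16 were called lower and 0 higher, with a median of -0.58. These are shares of the total, and the distant share as a whole fell by 0.77 on the log2 scale in this comparison. Some of the 35 windows overlap each other, and those of SLC2A11 and ENSG00000251357 overlap the CBS window.

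Boundary crossing was taken over the distant reporters that lie on the enhancer's CBS side, as the percentage of them found past the site, with the 12 kb around it left out. At IGLL1 it was 61.8% (60.5 to 63.1) in depleted cells, and 61.3% (60.1 to 62.4), 66.8% (65.7 to 67.8) and 68.6% (67.5 to 69.8) at 0, 24 and 96 h. It was higher at 24 h and at 96 h than at 0 h (0.35 and 0.47 on the log2 scale by Fisher's exact test), where 39.2% and 17.6% of loci were called higher and 37.3% and 70.6% lower. Most loci of its class did the same, with 12 of 15 B cell loci called higher at 24 h and 9 of 15 at 96 h, against 8 and 0 of 36 iMac loci. With depletion it was lower by 0.44 (-0.55 to -0.33, adjusted p = 6.82e-15 by Fisher's exact test), whereas crossing was called higher at 94.1% of the 51 loci. Lower crossing was called at 1.96% of loci, IGLL1 alone, and the next lowest value was 0.06. At IGLL5 crossing was 90.9% (90.3 to 91.5) in depleted cells, and 84.9% (83.9 to 85.9), 87.1% (86.3 to 88.0) and 84.4% (83.4 to 85.3) at 0, 24 and 96 h. The rise with depletion was 0.89 (0.74 to 1.04), the rise at 24 h was 0.27, and 96 h against 0 h was not called (-0.06, -0.21 to 0.09). Because the IGLL5 CBS is so near its enhancer, the stretch before the site was only the few kb left by the exclusion around the viewpoint and the window around the site. The difference in the depletion change, IGLL1 minus IGLL5, was -1.33 (-1.52 to -1.14).

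The region beyond the IGLL1 CBS holds a second set of strong contacts. Between GSTT2B and GSTT2, which encode glutathione transferases, with DDTL and DDT between them, the IGLL1 enhancer had 668, 820 and 706 counts at 0, 24 and 96 h, or 2.23%, 2.41% and 2.45%, an interval picked after its values were seen. Depleted cells had 470 counts, 1.37% (1.25 to 1.5), and the parental line at 96 h 706 counts, 2.45% (2.28 to 2.64), a log2 change of -0.85 (-1.02 to -0.69). As a share of distant counts the interval took 8.47% in depleted cells and 9.88% in the parental line. From the IGLL1 CBS the same interval took 10.3%, 11% and 11.4% of the total at 0, 24 and 96 h. In this interval 82.3% of 31-base words occur elsewhere in the genome, so the copy from which its reads came is uncertain.

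The CBS viewpoints met the promoters and enhancers of their loci more often at 96 h than at 0 h. From the IGLL1 CBS the promoter window (C-P-X) held 236, 348 and 305 counts at 0, 24 and 96 h, or 0.320%, 0.401% and 0.461%, and from the IGLL5 CBS 682, 764 and 803 counts, or 0.931%, 0.965% and 1.3%. IGLL1 rose by 0.33 at 24 h (0.08 to 0.57, adjusted p = 0.0157 by the exact test) and by 0.53 at 96 h (0.28 to 0.78, adjusted p = 4.33e-05). IGLL5 rose by 0.49 at 96 h (0.34 to 0.64, adjusted p = 2.55e-10 by the exact test) and was not called at 24 h (0.05, -0.10 to 0.20). Of the 48 loci measured, 41.7% were called higher and 10.4% lower at 24 h, and 68.8% higher and 6.25% lower at 96 h. The IGLL1 promoter was thus lower from its enhancer and higher from its CBS at 96 h, although that rise was not called with windows of 30 kb (0.091) or without fragments of repeated sequence (0.27). The IGLL1 rise at 24 h was lost with an exclusion of 20 kb (0.28), relative to distant counts (0.20), with each pair counted once (0.23), with counts divided by 3 (0.34) and without repeated sequence (0.32).

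The enhancer window from the CBS (C-E-X) held 297, 374 and 327 counts at IGLL1 at 0, 24 and 96 h, or 0.402%, 0.431% and 0.494%, and 497, 636 and 696 counts at IGLL5, or 0.679%, 0.803% and 1.13%. IGLL5 rose by 0.24 at 24 h (0.07 to 0.42) and by 0.74 at 96 h (0.57 to 0.91, adjusted p = 5.63e-18 by the exact test). IGLL1 rose by 0.30 at 96 h (0.07 to 0.53, adjusted p = 0.0202 by the exact test) and was not called at 24 h (0.10, -0.13 to 0.32). This rise at IGLL1 stayed called with windows of 30 kb (0.22) and an exclusion of 20 kb (0.31) and was lost under all other alternatives run, at 0.10 to 0.30. Of 51 loci, 29.4% were called higher and 15.7% lower at 24 h, and 56.9% higher and 5.88% lower at 96 h. The difference between the 2 loci at 96 h, IGLL1 minus IGLL5, was -0.44 (-0.72 to -0.16). From the IGLL5 CBS, the 5 tiles from -72 to -12 kb, which hold the promoter, the constant genes and the enhancer, all rose, by 0.50 to 0.76. Tiles from -276 to -204 kb, in the variable segments beyond, fell in all 6 cases, by as much as 0.58. Counts that joined CBS, enhancer and promoter were 15, 14 and 18 at IGLL5 at 0, 24 and 96 h (96 h against 0 h 0.50, -0.56 to 1.60, not called, where 48.1% of 27 loci were called higher and 3.7% lower) and 1, 6 and 3 at IGLL1.

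Over the 3 E-P-X changes (24 h, 96 h and depletion), the loci nearest to IGLL1 by Euclidean distance on the log2 scale among the 50 others were IL7R, the receptor for the growth factor of B cell precursors (distance 0.44), BCL11A, a lymphoid transcription factor gene (0.768), and EBF1 (0.773). IL7R changed by -1.22 at 24 h, -1.42 at 96 h and -0.56 with depletion. IGLL5 was number 9 in that order, at 1.39. The loci nearest to IGLL5 were BCL2, which encodes a survival factor (0.112), RAG2, a subunit of the recombinase (0.119), and DNTT, the terminal transferase gene (0.211), and IGLL1 was number 19. All 6 named neighbours are loci of the B cell class. Distances rest on 3 values that share libraries and are a description.

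**Figure D5:**
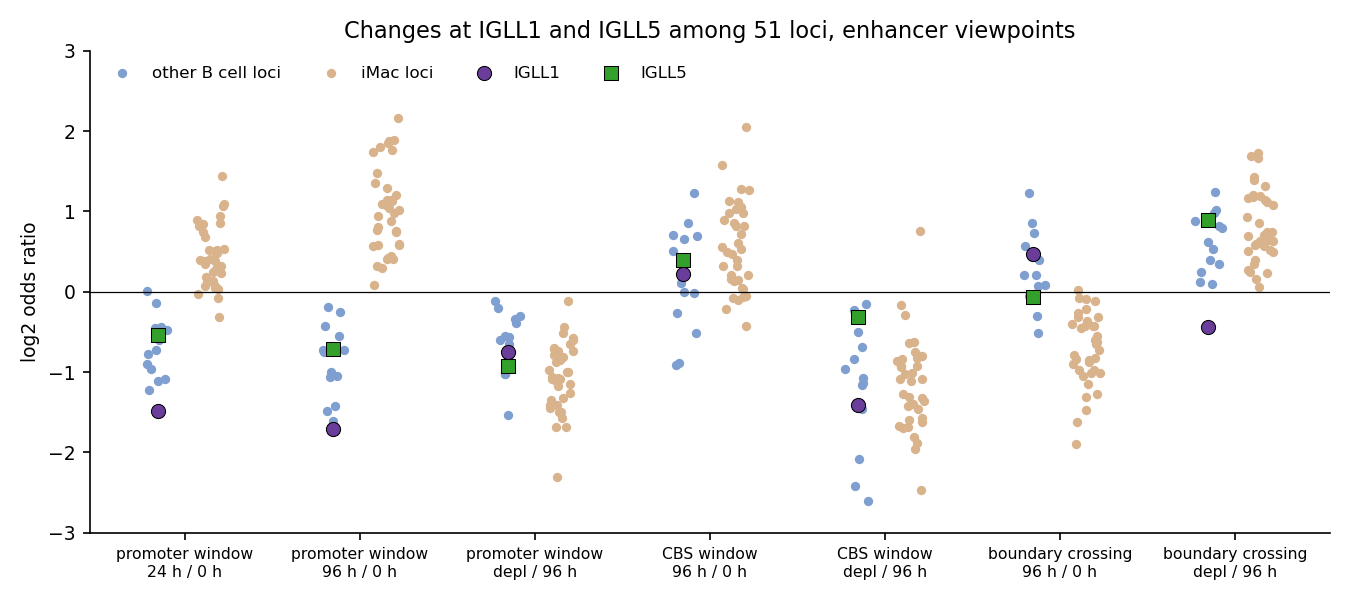
Log2 odds ratios at IGLL1 (circle) and IGLL5 (square) and at the 13 other B cell loci and 36 iMac loci (small points), for 7 comparisons from enhancer viewpoints. IGLL1 is lowest in the promoter window at 24 h (-1.49) and 96 h (-1.71) and lies below 0 in boundary crossing with CTCF depletion (-0.44).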

How the data were processed

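Tri-C libraries were made with NlaIII digestion, proximity ligation and oligonucleotide capture, with 3 biological replicates per group. The authors ran CapCruncher 0.2.3 in capture mode on hg38, combined replicates and kept reads that carry 2 or more reporters from the viewpoint's chromosome. The extraction used a script of their own, archived with the paper. The deposited unit is a count, raw and not normalized, of reads that join a pair of reporter fragments with the viewpoint. All reporter pairs of a read were counted by the authors, so counts are not independent. The study binned and normalized the counts, and raw counts were used here.

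The viewpoint was placed at the middle of the reporter-free gap of highest flanking counts, and the captured fragment was taken as the 1 fragment of at least 120 bases that explains the gap. Promoters are starts of canonical transcripts. Windows of 12 kb, an exclusion of 10 kb and a total within 1 Mb were used. Window counts were compared between 2 libraries with a two-sided exact conditional binomial test against the rest of the total. Log2 ratios are of odds, with a pseudocount of 0.5 and 95% intervals. Distant shares, boundary crossing and the GSTT2B to GSTT2 interval used Fisher's exact test with large-sample intervals. Differences between the 2 loci have large-sample intervals. P-values were adjusted by the Benjamini-Hochberg method over loci with at least 20 window counts (51 of 53, since IFNGR2 and TASL were left out as in the study), over tiles or over promoter windows, with calls under 0.05. Tests were checked on simulated counts drawn independently of each other. That check does not cover the dependence between counts of a read or differences between replicates. Genes named besides IGLL1 and IGLL5 are those of the surrogate and lambda light chains, the 4 neighbouring promoters per locus of largest rise and of largest fall with at least 50 counts, and the 3 nearest loci. DRICH1, the GSTT2B to GSTT2 interval and the windows beyond 500 kb were chosen after their values were seen. The members, lists and tests were chosen with earlier results of these data known. Alternatives changed window width, exclusion, total, repeated fragment pairs, an assumed 3-fold repetition of counts, repeated sequence, gene start and window reach. Python 3.11.15, NumPy 2.4.6, pandas 2.3.3, SciPy 1.17.1 and matplotlib 3.10.9 were used.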

Additional observations from a re-analysis of the deposited data

Results flagged for a closer look

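The contact of the IGLL1 enhancer with the VPREB1 promoter spans over 1 Mb, beyond the distance within which the main comparisons counted contacts, and it was above the limit that a count of 0 allows. It took 0.0738% of the counts on the chromosome (38 counts) in the CTCF-depleted library, and 0.162% at 0 h (64 counts), 0.0585% at 24 h (27 counts) and 0.0434% at 96 h (17 counts). The 4 neighbouring tiles held 7 to 36 counts at 0 h and 7 to 12 at 96 h. In the VPREB1 window 18.1% of 31-base words occur elsewhere in the genome, and without fragments of mostly repeated sequence the 96 h change was -2.11. Its cause was not tested.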

How the results depend on the processing

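No paired analysis was possible because the 3 replicates of a group were merged into 1 count file before deposit, and for the same reason no replicate could be left out in turn. Of 229 values recomputed under alternatives for the 27 main results, 198 kept their direction and their side of the threshold. The falls of E-P-X at 24 h and 96 h did so at both loci under all 10 alternatives, with ranges of -1.56 to -1.04 and -1.92 to -1.17 at IGLL1 and of -0.63 to -0.25 and -0.93 to -0.36 at IGLL5. For these falls 1 of the 10, the outermost gene start, gave the same window counts as the main setting, so it could not change them. Its values are counted among the 229. The 3 contacts with VPREB1 or IGLL1 over long distances stayed lower at 96 h under all alternatives run, with -2.35 as the lowest and -1.45 as the highest value.

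Calls were lost or gained as follows, and the cause was not tested beyond the construction of each alternative. Relative to distant counts, E-P-X with depletion at IGLL1 (-0.13), C-P-X at 24 h (0.20) and C-E-X at 96 h (0.20) at IGLL1 and C-E-X at 24 h at IGLL5 (0.19) were not called, and E-C-X with depletion at IGLL5 turned to 0.15. Windows of 7.5 kb ended the calls of E-C-X at IGLL5 at 96 h (0.13) and with depletion (-0.20) and of C-E-X at IGLL1 at 96 h (0.27), and made crossing at IGLL5 at 96 h called (-0.15). Windows of 30 kb ended C-P-X at IGLL1 at 96 h (0.091). An exclusion of 20 kb ended E-C-X at IGLL5 at 96 h (0.18) and C-P-X at IGLL1 at 24 h (0.28) and made E-C-X at IGLL1 at 96 h called (0.52), and 5 kb ended C-E-X at IGLL1 at 96 h (0.19). Counting each fragment pair once ended E-C-X with depletion at IGLL5 (-0.11), C-P-X at 24 h (0.23) and C-E-X at 96 h (0.25) at IGLL1, and C-E-X at 24 h at IGLL5 (0.18). Counts divided by 3 ended the same 3 CBS calls (0.34, 0.30 and 0.25) and left 9 tiles called higher and 4 lower, from 51 and 29. Without repeated sequence, C-P-X at IGLL1 at 24 h (0.32) and 96 h (0.27) and C-E-X at 96 h (0.10) were not called, and the total over the chromosome ended the last as well (0.24). Promoter windows called lower were 9 with the chromosome total and 12 with windows to 990 kb, from 5, and those called higher were 1 with pairs counted once and 0 with counts divided by 3, from 3.

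Crossing at IGLL5 with windows of 30 kb or an exclusion of 20 kb gave no value, since no reporter was left before the site, and E-P-C at IGLL1 and at IGLL5 with windows of 7.5 kb had fewer than 20 counts. The depletion changes of the long contacts were less firm: relative to distant counts the IGLL5 enhancer with the IGLL1 promoter (0.78) and the IGLL1 enhancer with VPREB1 (1.2) had intervals above 0. With 1 pooled library per condition, differences between cultures, the subclone and auxin cannot be told apart from the conditions.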
